A study of Mus musculus with 12 samples.

Results

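The respiratory chain of mitochondria is built from 2 genomes, and its transcripts were compared between EED-/- and WT mouse cerebellum in 132 genes. The members were all 37 genes whose symbol starts with mt-, which lie on the mitochondrial genome, and 95 protein-coding nuclear genes whose symbols start with Nduf, Uqcr, Cox4 to Cox8 or Atp5 or are Sdha to Sdhd. They are 132 of the 55385 genes in the deposited table. The mitochondrial genes were 13 mRNAs, 2 rRNAs and 22 tRNAs. The nuclear genes were 37 of complex I, 4 of complex II, 8 of complex III, 20 of complex IV, 18 of complex V and 8 assembly factors of complex I.

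The samples were whole cerebella of C57BL/6 mice at postnatal day 14, with 3 RNA-seq libraries from Eed conditional knockouts (EED-/-) and 3 from wild-type mice (WT). Polyadenylated RNA was extracted with Trizol and prepared with an Illumina kit. Eed is a core subunit of Polycomb repressive complex 2, which deposits the repressive histone mark H3K27me3. The labels name no Cre line, no deleted exon and no separate animals, so the p-values measure the spread between these libraries, which may be technical. ChIP-seq samples of the same tissue were not analysed here.

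Complexes I, III and IV pump protons across the inner mitochondrial membrane as electrons pass from NADH to oxygen, and complex V, the ATP synthase, uses the resulting gradient to make ATP. Complex II feeds in electrons from succinate and has no subunit from the mitochondrial genome. The mitochondrial genes are transcribed by their own RNA polymerase, Polrmt, as long precursors of both strands that are cut apart, while the nuclear subunits are transcribed in the nucleus and imported as proteins. Neurons use oxidative phosphorylation heavily, and several complex IV subunits have isoforms made mainly in muscle, lung or testis.

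Eed was lower in the libraries labelled EED-/-, as the labels say. It stood at 11.6, 9.31 and 11.3 CPM (counts per 1000000 counts of a library, after TMM scaling) in EED-/- cerebella and at 20.1, 26.6 and 23.5 CPM in WT cerebella. The log2 fold change was -1.12 with an SE of 0.154 (edgeR quasi-likelihood test, Benjamini-Hochberg adjusted p = 0.0015). Libraries held 19621814 to 20366173 counts, and 18091 genes passed the filter on low counts. Over those genes 4669 were called at an adjusted p under 0.05, 2125 higher and 2544 lower; upper-quartile scaling in place of TMM gave 2828 higher and 1786 lower. Levels of cell type markers differed with genotype in some lists, to be set beside 11.7% higher and 14.1% lower among all tested genes. All 12 granule neuron markers were lower, with a summed level of 592 to 844 CPM in EED-/- and 5331 to 6734 CPM in WT libraries. Of 10 microglia markers, 8 were higher, and the 10 summed to 346 to 390 CPM in EED-/- and 190 to 204 CPM in WT libraries. Of 9 Purkinje cell markers, 0 were higher and 1 lower. Of 8 astrocyte and Bergmann glia markers, 2 were higher and 2 lower, and of 8 myelin markers 0 were higher and 4 lower. None of 8 choroid plexus and 6 blood cell markers was called. In whole tissue, fewer cells of a type and less RNA per cell cannot be told apart.

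The nuclear respiratory chain genes were close to level between genotypes, while the mitochondrial mRNAs sat higher in EED-/- on average without passing the test. Of the 132 members, 124 passed the low-count filter. Among the 91 nuclear members tested, 5 were higher in EED-/- (5.49%, against 11.7% of all tested genes) and 0 were lower (against 14.1%). Cox6a2, counted among the 5, passed the low-count filter through its EED-/- libraries. Of the 9106 tested genes at or above the 10th percentile of the nuclear members' level, 712 were higher and 1779 lower. The median log2 change of these 91 was 0.03, set beside -0.03 over all tested genes. A change within 0.3 in either direction was found for 82 of the 91 (90.1%), against 47.1% of all tested genes and 57.6% of the 9106 genes at or above the 10th percentile of the nuclear members' level. For 69 of the 91, the 95% interval of the log2 change lay within 0.5 of 0 in both directions. The genotypes did not overlap in 11 of the 91 (12.1%, against 43.9% of all tested genes). In EED-/- replicate 3 the shorter nuclear members sat lower than in the other libraries. Spearman's rho between length and a library's deviation from the gene's mean, over the 91 genes of 1 library, was -0.25, -0.23 and 0.33 in EED-/- and 0.05, -0.11 and 0.11 in WT, and its part in the results was not tested.

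**Figure D1:**
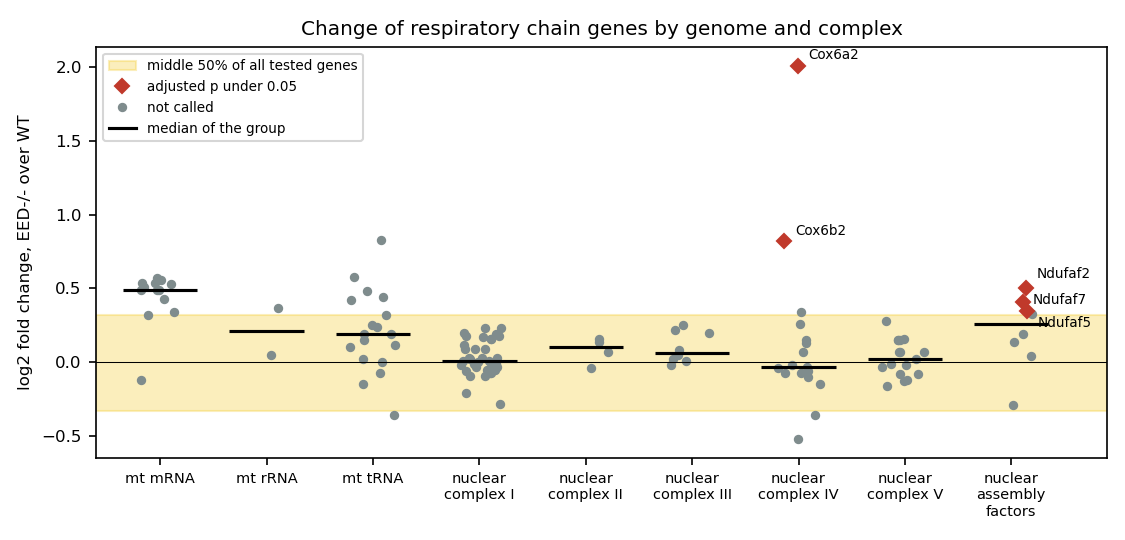
Log2 fold changes of EED-/- over WT for the 124 tested members, 1 point per gene, by genome and complex; lines are medians, the band is the middle 50% of all 18091 tested genes, and diamonds passed an adjusted p of 0.05. The mitochondrial mRNAs lie near 0.49 apart from 1 gene just below 0, the nuclear groups lie near 0, and the 5 called genes are 2 isoforms of complex IV and 3 assembly factors.

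The mitochondrial mRNAs took up a larger share of each EED-/- library. The 13 mRNAs made up 6.69, 6.01 and 7.51% of counts in EED-/- libraries and 2.95, 5.84 and 4.82% in WT libraries. The lowest EED-/- library and the highest WT library differed little, and WT replicate 1 lay far below the other WT libraries. The mean share was 6.74 ± 0.751% in EED-/- and 4.54 ± 1.47% in WT (SD, n = 3 each); 3 libraries against 3 without overlap give an exact permutation p of 0.1, the smallest this design allows. The 95 nuclear members together held 1.15, 1.14 and 0.995% of counts in EED-/- libraries and 1.1, 0.969 and 1.01% in WT libraries, and the genotypes overlapped.

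Set against each other within a library, which removes the scaling between libraries, mitochondrial mRNA counts were 5.82, 5.28 and 7.54 times the nuclear members' counts in EED-/- cerebella. In WT cerebella the ratio was 2.68, 6.03 and 4.80. The genotypes overlapped: WT replicate 2 had a higher ratio than 2 of the EED-/- libraries. The mean ratio was 6.21 ± 1.18 in EED-/- and 4.5 ± 1.69 in WT (SD, n = 3 each), 1.38 times higher in EED-/-, and this is a description with no test. Without WT replicate 1 the means differed 1.15 times. Without WT replicate 2 they differed 1.66 times.

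**Figure D2:**
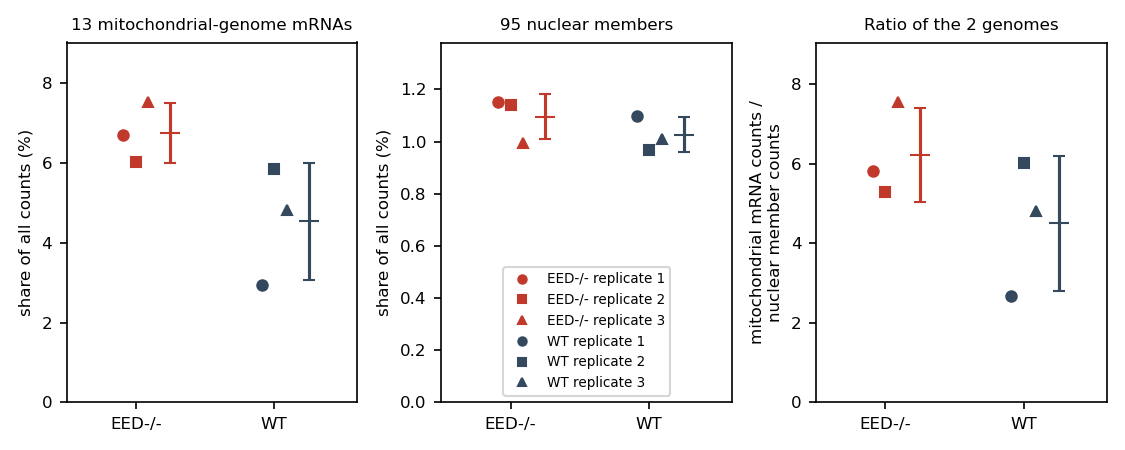
Share of all counts (%) from the 13 mitochondrial mRNAs and from the 95 nuclear members, and the ratio of the 2, in each library; points are libraries and bars the mean ± SD of 3. The mitochondrial share of WT replicate 1 is 2.95%, the lowest, and the nuclear share runs from 0.969 to 1.15% over the 6 libraries.

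The same tilt appeared in each complex that holds subunits from both genomes. The 4 ratios come from the same libraries, so they are not independent observations. For complex I the ratio of mitochondrial to nuclear counts was 8.28 ± 2.04 in EED-/- and 6.11 ± 2.39 in WT, and for complex III, whose mitochondrial subunit is cytochrome b, 7.08 ± 1.31 in EED-/- and 5.2 ± 2.02 in WT. Complex IV had the highest ratio, at 12.7 ± 2.55 in EED-/- and 8.85 ± 3.13 in WT, and complex V the lowest, at 2.21 ± 0.434 in EED-/- and 1.52 ± 0.609 in WT (SD, n = 3 each). The genotypes overlapped in all 4. Per length of transcript, the median mitochondrial mRNA stood at 5527, 4732 and 5929 CPM per kilobase in EED-/- and at 2415, 5057 and 4070 in WT, and the median nuclear subunit at 103, 103 and 86.6 in EED-/- and 99, 92.1 and 94.3 in WT. The lowest mitochondrial mRNA exceeded the highest nuclear subunit in every library: the lowest stood at 1838 to 2219 CPM per kilobase in EED-/- and 957 to 2221 in WT, and Atp5b, the catalytic beta subunit of ATP synthase and the highest nuclear subunit on average, at 620 in EED-/- and 677 in WT.

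Of the 13 mitochondrial mRNAs, 12 had a positive log2 change and 1 a negative one, with a median of 0.49, and edgeR called 0 of them (25.8% of all tested genes were called). Of all 33 mitochondrial genes tested, 2 had an unadjusted p under 0.05 (38.1% of all tested genes did). DESeq2 called 3 of the mitochondrial genes higher, mt-Atp6, mt-Co1 and mt-Tl1 (10.2% of all genes it tested were higher), and limma-voom called mt-Tl1 alone (11.7%). The authors' deposited table also gives 3 mitochondrial genes as higher at an adjusted p under 0.05, where 6.04% of all its genes with a p-value are higher, and 0 as lower, where 6.7% are. Leaving out WT replicate 2 made 9 mitochondrial genes pass as higher with edgeR (11.0% of all tested genes), and leaving out WT replicate 1 lowered the median change of the 13 mRNAs to 0.29.

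mt-Co1, which encodes the catalytic core of complex IV, was the most abundant member. It stood at 13962, 13663 and 16999 CPM in EED-/- cerebella and at 7279, 12811 and 11207 CPM in WT cerebella. It was the only 1 of the 13 mitochondrial mRNAs whose genotypes did not overlap (7.69%, against 43.9% of all tested genes). Its log2 change was 0.51 (SE 0.213, edgeR adjusted p = 0.114). mt-Atp6, the proton channel subunit of ATP synthase, stood at 6803, 5726 and 7819 CPM in EED-/- and 2990, 6115 and 4878 in WT (log2 change 0.54, edgeR adjusted p = 0.152). mt-Cytb, the electron-carrying core of complex III, stood at 6704, 6108 and 7422 CPM in EED-/- and 2861, 6222 and 4953 in WT (0.53, edgeR adjusted p = 0.171). In both genes EED-/- replicate 2 lay below WT replicate 2, and WT replicate 1 was the lowest of all libraries.

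The other mitochondrial subunits behaved alike with 1 exception. The complex I subunits mt-Nd1, mt-Nd4, mt-Nd4l, mt-Nd5 and mt-Nd6 had log2 changes of 0.49, 0.49, 0.57, 0.56 and 0.49, and mt-Nd2 0.34. The complex IV core subunits mt-Co2 and mt-Co3 had 0.43 and 0.32, and mt-Atp8 of complex V had 0.54. None of these passed the test, and the edgeR adjusted p of mt-Nd4l was 0.18. mt-Nd3, a small membrane subunit of complex I, stood at 824, 640 and 765 CPM in EED-/- and 620, 1074 and 726 in WT, a log2 change of -0.12 (SE 0.204, edgeR adjusted p = 0.71). It was the only mitochondrial mRNA with a negative change. The rRNAs mt-Rnr1 and mt-Rnr2, of the small and large mitochondrial ribosome subunits, had log2 changes of 0.37 and 0.05. In libraries of polyadenylated RNA these need not follow rRNA levels.

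**Figure D3:**
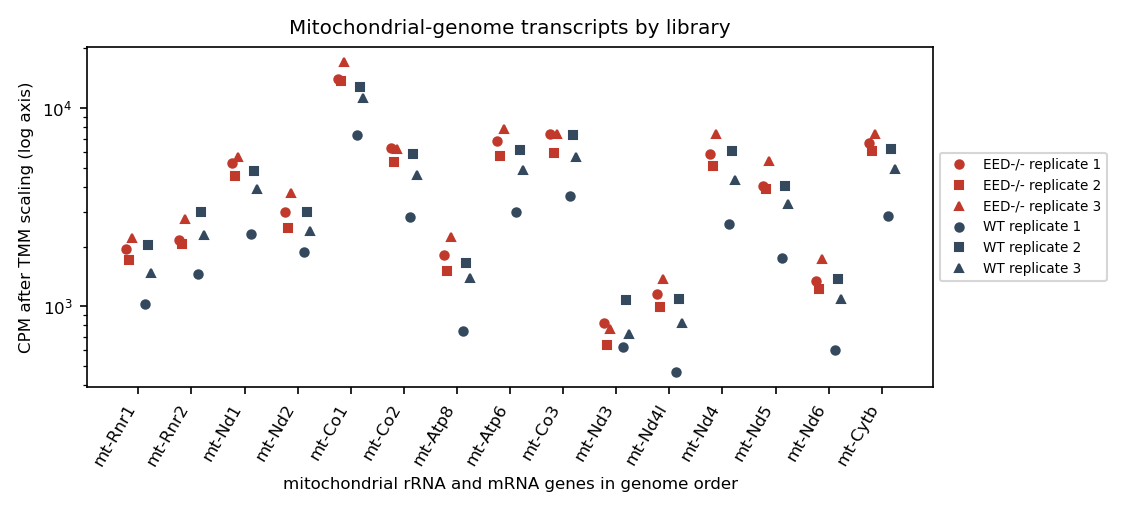
Level of the 2 mitochondrial rRNAs and 13 mRNAs in CPM on a log axis, in genome order, with EED-/- libraries left of WT libraries for each gene. WT replicate 1 is the lowest WT library for every gene, at 7279 CPM for mt-Co1, and EED-/- and WT replicates overlap for every gene but mt-Co1.

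Within the mitochondrial mRNA pool, mt-Nd3 stood apart. It was 1.28, 1.12 and 1.03% of mitochondrial mRNA counts in EED-/- cerebella and 2.03, 1.75 and 1.48% in WT cerebella, and the genotypes did not overlap. The mean share was 1.14 ± 0.125% in EED-/- and 1.75 ± 0.277% in WT (SD, n = 3 each), and the exact two-sided permutation test gave p = 0.1, the smallest that 3 libraries against 3 allow. mt-Atp6 also did not overlap, at 10.4 ± 0.31% in EED-/- and 9.88 ± 0.0806% in WT (SD, n = 3 each, exact two-sided permutation p = 0.1). Over the 13 mRNAs compared in this way, the Benjamini-Hochberg adjusted value of both was 0.65, and the other 11 overlapped. mt-Co1 was the largest part of the pool, at 22.8 ± 1.12% in EED-/- and 22.5 ± 1.52% in WT.

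**Figure D4:**
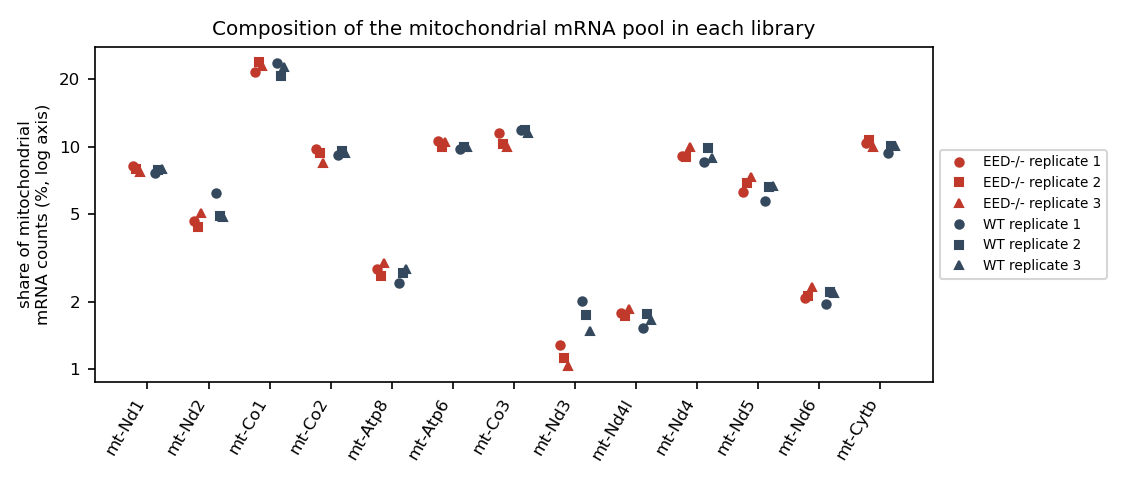
Share of each mRNA in all mitochondrial mRNA counts of a library (%, log axis), in genome order, with EED-/- libraries left of WT libraries. The shares of mt-Nd3 are 1.03 to 1.28% in EED-/- and 1.48 to 2.03% in WT; mt-Co1 holds the largest share in every library.

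Among the mRNA genes, 3 pairs share more than 1 base, which are shown because reads in them cannot be assigned to 1 gene by position alone. They are on the mitochondrial genome of GRCm38.p6 (RefSeq), plus strand, with the shared bases in capitals. The first holds the end of mt-Atp8 and the start of mt-Atp6 (MT 7927 to 7969, 43 bases), the second the end of mt-Nd4l and the start of mt-Nd4 (MT 10167 to 10173, 7 bases), and the third the ends of mt-Nd5 and mt-Nd6 (MT 13552 to 13565, 14 bases), which lie on opposite strands.
mt-Atp8 and mt-Atp6: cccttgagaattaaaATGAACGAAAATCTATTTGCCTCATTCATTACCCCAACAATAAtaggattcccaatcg
mt-Nd4l and mt-Nd4: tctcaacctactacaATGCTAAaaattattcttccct
mt-Nd5 and mt-Nd6: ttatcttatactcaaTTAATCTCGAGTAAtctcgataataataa
The ATG of mt-Atp6 opens the first run of capitals, and the ATG of mt-Nd4 the second. mt-Atp6 and mt-Co3 share 1 base, which is not shown, and 3 mRNA genes share 2 or 3 bases with a tRNA gene. mt-Nd3 shares no bases with another gene. The log2 changes of the overlapping partners were 0.54 and 0.54 for mt-Atp8 and mt-Atp6, 0.57 and 0.49 for mt-Nd4l and mt-Nd4, and 0.56 and 0.49 for mt-Nd5 and mt-Nd6.

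The tRNA genes carried few counts and did not separate the genotypes as a group. Of the 22, 18 were tested and 0 called (against 25.8% of all tested genes), with a median log2 change of 0.19. The 14 tRNA genes on the same strand as most mRNAs had mean counts of 3.0 to 496 a library, and the 8 on the other strand 102 to 3954, which was 90.2% of all tRNA-gene counts. The sources used here do not say whether counting used strand, and without it reads of long precursors across these genes cannot be told from mature tRNA or from the opposite strand. The libraries were made from polyadenylated RNA, so counts of tRNA genes need not follow tRNA levels. mt-Tl1, the leucine tRNA that follows mt-Rnr2 and precedes mt-Nd1, stood at 29.9, 31.2 and 27.1 CPM in EED-/- and 14, 23.5 and 21.5 in WT. Its genotypes did not overlap, and its log2 change of 0.58 (SE 0.188) had an edgeR adjusted p of 0.0522, with values from 0.00877 to 0.141 over 14 other fits, 9 of them under 0.05.

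Among the nuclear genes, the 37 of complex I, the NADH dehydrogenase, showed no call in either direction (against 25.8% of all tested genes), and every log2 change lay between -0.28 and 0.23. The smallest p belonged to Ndufv2, an iron-sulfur subunit of the NADH-binding arm, at 95.3, 85.3 and 96.1 CPM in EED-/- and 69.7, 84.6 and 81.2 in WT (log2 change 0.23, edgeR adjusted p = 0.181). The genotypes did not overlap in 2 of the 37 (5.41%, against 43.9% of all tested genes). For 34 of the 37 the 95% interval lay within 0.5 of 0 on the log2 scale.

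Complexes II, III and V likewise had 0 of 4, 0 of 8 and 0 of 17 tested genes called, against 25.8% of all tested genes. The summed share of complex II did not overlap between genotypes, at 0.0631 to 0.0666% of counts in EED-/- and 0.0549 to 0.0606% in WT. The summed shares of complexes III and V overlapped. Sdhb, the iron-sulfur subunit of succinate dehydrogenase, stood at 99.0 ± 6.96 CPM in EED-/- and 88.7 ± 3.52 in WT (SD, n = 3 each, edgeR adjusted p = 0.302). Uqcrh, the hinge protein of complex III, stood at 140, 130 and 121 CPM in EED-/- and 110, 119 and 111 in WT, with no overlap (log2 change 0.20, edgeR adjusted p = 0.194). Atp5pb, the stalk subunit of ATP synthase, stood at 228, 212 and 230 CPM in EED-/- and 154, 213 and 183 in WT (0.28, edgeR adjusted p = 0.157). The 3 genes for the c subunit of the ATP synthase ring, Atp5g1, Atp5g2 and Atp5g3, make the same mature protein and had log2 changes of 0.15, -0.08 and 0.07. Their levels were 152 ± 19.6, 39.0 ± 4.49 and 227 ± 19.7 CPM in EED-/- and 136 ± 17.5, 41.2 ± 2.95 and 216 ± 16.1 CPM in WT.

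In complex IV, 2 of 17 tested genes were higher (11.8%, against 11.7% of all tested genes) and 0 were lower, and both are tissue-specific isoforms. Cox6a2, the isoform of subunit 6A made in heart and skeletal muscle, stood at 1.51, 1.69 and 1.66 CPM in EED-/- cerebella and 0.257, 0.215 and 0.724 CPM in WT cerebella, from 32, 36 and 34 counts in EED-/- and 5, 4 and 14 in WT. The genotypes did not overlap, and the level was 4.02-fold higher in EED-/- (log2 change 2.01, SE 0.431, edgeR adjusted p = 0.0108). It passed the low-count filter through its EED-/- libraries, so the test is not independent of that choice. As a description, the edgeR, DESeq2 and limma-voom adjusted p ran from 0.000457 to 0.0384 over 14 other fits, and without WT replicate 3, the highest WT library, the log2 change was 2.75. The gene lies on chromosome 7 at 128205435 to 128206387 on the minus strand (GRCm38). Its partner Cox6a1, the form made in most tissues, stood at 257, 291 and 192 CPM in EED-/- and 316, 219 and 244 in WT (edgeR adjusted p = 0.808). Per length, Cox6a2 was 0.567 ± 0.134% of the pair in EED-/- and 0.133 ± 0.1% in WT.

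Muscle markers were also higher in EED-/-. Their summed level was 210, 224 and 170 CPM in EED-/- and 20.5, 18.5 and 19.1 CPM in WT libraries. Cox6a2 had 102 counts in EED-/- and 23 in WT, too few to compare its order within a genotype with that of the markers. Acta1, skeletal muscle actin, stood at 21.8 ± 3.98 CPM in EED-/- and 1.70 ± 0.198 in WT (SD, n = 3 each). Ckm, muscle creatine kinase, stood at 4.5, 3.43 and 1.91 CPM in EED-/- and was at 0 counts in WT replicates 1 and 2. Of the 18 markers, 17 were tested and all 17 were called higher (against 11.7% of all tested genes). But 11 of them, Ckm included, passed the low-count filter only with the EED-/- libraries, so that their calls are partly fixed by the filter. The other 6 were at the filter's level in all 3 WT libraries. The part of these markers in the Cox6a2 result was not tested. Other muscle isoforms gave no call: Cox7a1, the muscle form of subunit 7A, stood at 3.22, 2.63 and 2.84 CPM in EED-/- and 4.41, 3.17 and 3.57 in WT (log2 change -0.36, edgeR adjusted p = 0.244), and Cox8b had 46 counts in EED-/- and 20 in WT, too few to be tested.

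Cox6b2, the testis isoform of subunit 6B, stood at 10.9, 9.83 and 6.75 CPM in EED-/- cerebella and 4.98, 5.58 and 5.01 CPM in WT cerebella. Every EED-/- library was above every WT library, with a fold of 1.76 (log2 change 0.82, SE 0.203, edgeR adjusted p = 0.0193). The call was lost without EED-/- replicate 1, EED-/- replicate 2 or WT replicate 3, with adjusted p of 0.00348 to 0.0884 over the 14 other fits. Its partner Cox6b1 stood at 205, 192 and 162 CPM in EED-/- and 225, 190 and 184 in WT (edgeR adjusted p = 0.613), so Cox6b2 was 5.16 ± 0.622% of the pair per length in EED-/- and 2.85 ± 0.391% in WT. Other isoforms were not called or too low to be tested: Cox4i2, the lung form of subunit 4, stood at 2.26 ± 0.311 CPM in EED-/- and 2.36 ± 0.716 in WT, Cox7b2 had 7 counts in EED-/- and 10 in WT, and Cox8c had 0 in every library. Ndufa4l2, a relative of the complex IV subunit Ndufa4 known for induction by low oxygen, stood at 3.12, 4 and 2.99 CPM in EED-/- and 2.82, 2.41 and 2.74 in WT (edgeR adjusted p = 0.265).

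Cox8a, the form of subunit 8 made in most tissues, had a change of the opposite sign. It stood at 244, 251 and 190 CPM in EED-/- and 404, 306 and 273 in WT, with no overlap, and its log2 change of -0.52 (SE 0.173) had an edgeR adjusted p of 0.0576. DESeq2 called it lower, with an adjusted p of 0.0363 (11.2% of all genes it tested were lower). The authors' deposited table also gives it as lower, and in both it is the only nuclear member called lower. WT replicate 1 held the highest value, and without it the edgeR adjusted p was 0.176.

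**Figure D5:**
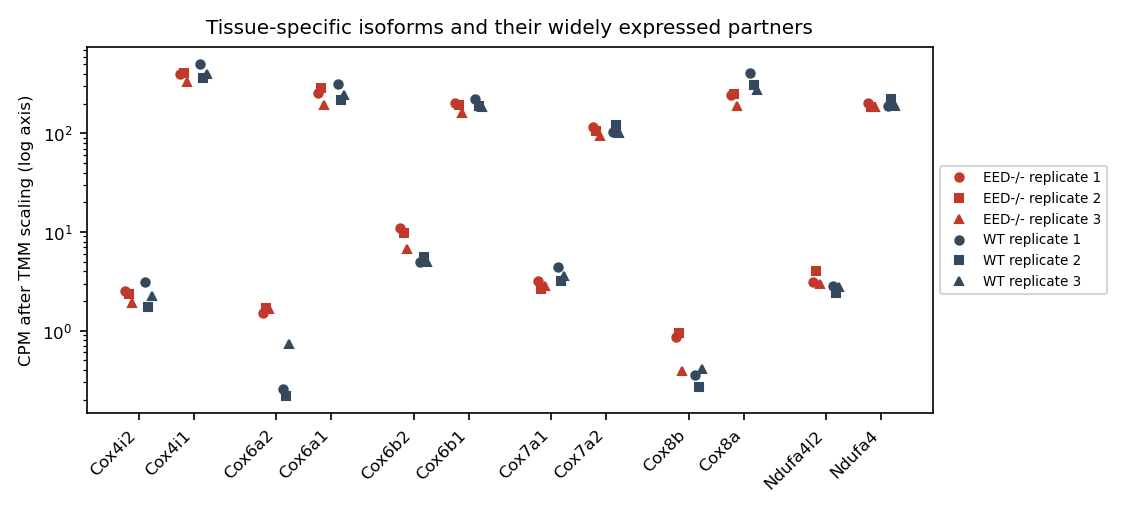
CPM on a log axis of 6 isoforms with restricted expression, each left of its widely expressed partner; EED-/- libraries are left of WT libraries for each gene. The 3 EED-/- values of Cox6a2 run from 1.51 to 1.69 CPM and those of WT from 0.215 to 0.724 CPM, while its partner Cox6a1 overlaps between genotypes.

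Promoters of 2 isoform pairs are shown as 300 bases, 250 before and 50 after the start of transcription, from RefSeq on GRCm38.p6, because CpG-rich promoters are where Polycomb repressive complex 2 is best known to act. Capitals mark matches to 3 motifs of factors known to regulate respiratory chain genes, the GC-rich palindromic consensus of NRF1, CCGGAAGT for ETS factors such as Gabpa and AAGATGGC for YY1, on both strands. Cox6b2 (chr7:4753045-4753344, minus strand) held 10 CpG dinucleotides and Cox6b1 (chr7:30626065-30626364, minus strand) 17. Cox8b (chr7:140900397-140900696, minus strand) held 2 and Cox8a (chr19:7217567-7217866, minus strand) 19, with 2 ETS matches.
Cox6b2: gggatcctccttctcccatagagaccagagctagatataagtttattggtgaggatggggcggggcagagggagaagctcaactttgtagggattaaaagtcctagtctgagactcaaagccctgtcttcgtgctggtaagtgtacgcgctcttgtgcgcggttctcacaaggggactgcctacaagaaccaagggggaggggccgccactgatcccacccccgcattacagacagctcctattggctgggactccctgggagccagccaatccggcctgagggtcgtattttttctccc
Cox6b1: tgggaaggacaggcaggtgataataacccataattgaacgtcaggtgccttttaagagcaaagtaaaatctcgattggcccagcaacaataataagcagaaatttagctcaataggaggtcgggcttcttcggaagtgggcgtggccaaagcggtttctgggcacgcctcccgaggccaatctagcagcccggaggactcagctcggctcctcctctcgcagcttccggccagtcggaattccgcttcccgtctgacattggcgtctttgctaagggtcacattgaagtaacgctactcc
Cox8b: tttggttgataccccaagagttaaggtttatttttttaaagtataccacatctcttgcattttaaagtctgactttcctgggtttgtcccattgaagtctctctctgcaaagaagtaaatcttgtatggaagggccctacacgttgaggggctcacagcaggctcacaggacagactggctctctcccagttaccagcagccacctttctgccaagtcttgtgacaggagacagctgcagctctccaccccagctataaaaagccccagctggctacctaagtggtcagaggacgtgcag
Cox8a: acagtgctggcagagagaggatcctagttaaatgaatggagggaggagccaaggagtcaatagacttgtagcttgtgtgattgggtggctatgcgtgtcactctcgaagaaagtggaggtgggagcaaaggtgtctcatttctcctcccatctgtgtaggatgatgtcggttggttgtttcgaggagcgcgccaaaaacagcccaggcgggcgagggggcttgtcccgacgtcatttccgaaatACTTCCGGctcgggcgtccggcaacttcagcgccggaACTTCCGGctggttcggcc
The restricted isoform had fewer CpG than its partner in both of these pairs, and Cox7a1 also had fewer (7) than Cox7a2 (20), whereas Cox7b2 had more (10) than Cox7b (5). Cox6a2, Cox4i2 and Ndufa4l2 had no promoter entry, so their pairs could not be compared. Over the 77 nuclear members with an entry, the median CpG count was 20, against 7 over all genes and 13 over protein-coding genes with an entry. The NRF1 letters were found in 19 of the 77 (24.7%), against 5.19% of all genes with an entry, and among promoters with at least 15 CpG in 31.1% of members and 13.5% of protein-coding genes. They occurred in 6 of 15 promoters of complex V and 1 of 14 of complex IV. The YY1 letters were in 14.3% of members and 3.19% of all genes, and the ETS letters in 6.49% of members and 4.31% of all genes. Among promoters with at least 15 CpG, the YY1 letters were in 13.1% of members and 5.43% of protein-coding genes, and the ETS letters in 8.2% of members and 9.42% of protein-coding genes. The 19 members with the NRF1 letters had a median log2 change of 0.07 and the 56 tested members with an entry that lack them 0.02.

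Assembly factors of complex I, which help to build the enzyme but are not part of it, were the other called genes. Of the 8 tested, 3 were higher (37.5%, against 11.7% of all tested genes) and 0 lower (against 14.1%), with a median log2 change of 0.26, and their summed share of counts was 0.0146, 0.0144 and 0.0142% in EED-/- and 0.0108, 0.0116 and 0.0111% in WT. Ndufaf2 stood at 16.0, 16.1 and 17.0 CPM in EED-/- and 10.7, 13.2 and 10.8 in WT (log2 change 0.50, SE 0.138, edgeR adjusted p = 0.0286). Ndufaf7, a methyltransferase that modifies a core subunit of complex I, stood at 24.4, 25.6 and 24.2 CPM in EED-/- and 16.6, 21.0 and 18.3 in WT (0.41, SE 0.126, edgeR adjusted p = 0.0436). Ndufaf5, a hydroxylase of a core subunit, stood at 26.4, 26.0 and 25.4 CPM in EED-/- and 21.9, 19.2 and 19.9 in WT (0.35, SE 0.110, edgeR adjusted p = 0.0476). In each of the 3 the EED-/- libraries were close together and above all WT libraries, but the edgeR adjusted p was near the threshold. The calls were lost in 5, 7 and 8 of 14 other fits for Ndufaf2, Ndufaf7 and Ndufaf5, among them each fit that left out 1 EED-/- library. The Ndufaf5 promoter (chr2:140170396-140170695, plus strand) carries the NRF1 letters just after the start of transcription, in capitals here.
Ndufaf5: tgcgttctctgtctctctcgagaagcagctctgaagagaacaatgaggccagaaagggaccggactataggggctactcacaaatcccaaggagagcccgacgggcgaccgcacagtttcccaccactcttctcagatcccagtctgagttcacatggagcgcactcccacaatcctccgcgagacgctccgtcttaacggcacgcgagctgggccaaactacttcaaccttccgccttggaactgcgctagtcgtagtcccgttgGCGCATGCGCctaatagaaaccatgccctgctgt
The 37 tested assembly factors whose symbols do not start with Nduf serve all the complexes. Of these, 0 were called (against 25.8% of all tested genes), with a median log2 change of 0.01.

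Of 30 tested genes that maintain and express mitochondrial DNA, 0 were higher and 2 lower (6.67%, against 14.1% of all tested genes lower and 11.7% higher), with a median log2 change of -0.08. Polrmt, the mitochondrial RNA polymerase, stood at 24.3, 29.1 and 18.9 CPM in EED-/- and 45, 38.1 and 32.9 in WT (log2 change -0.68, SE 0.181, edgeR adjusted p = 0.0251). Polg2, the accessory subunit of the mitochondrial DNA polymerase, stood at 4.21, 4.52 and 3.57 CPM in EED-/- and 9.80, 8.37 and 8.68 in WT (-1.12, SE 0.167, edgeR adjusted p = 0.00216). In both genes every EED-/- library was below every WT library. Polg2 was called in all 14 other fits, while the Polrmt call was lost in 4: with library size alone and without EED-/- replicate 1, EED-/- replicate 3 or WT replicate 1 (adjusted p from 0.00392 to 0.0867 over the 14). Tfam, the packaging and initiation factor of mitochondrial DNA, stood at 29.5 ± 1.65 CPM in EED-/- and 29.3 ± 1.82 in WT (edgeR adjusted p = 0.945).

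Of 11 regulators of mitochondrial biogenesis, 0 were higher and 3 lower (27.3%, against 14.1% of all tested genes lower and 11.7% higher): the coactivator Ppargc1b and the transcription factors Yy1 and Nrf1. Ppargc1b stood at 11.3, 10.5 and 12.3 CPM in EED-/- and 20.9, 17.3 and 18.5 in WT (log2 change -0.73, edgeR adjusted p = 0.00555). Yy1 stood at 69.5, 69.6 and 74.8 CPM in EED-/- and 97.8, 99.8 and 93.5 in WT (-0.44, edgeR adjusted p = 0.0126). Nrf1 stood at 18.4, 18.8 and 16.8 CPM in EED-/- and 24.4, 22.7 and 24.3 in WT (-0.40, edgeR adjusted p = 0.0299). Ppargc1b was called in all 14 other fits. The Yy1 call was lost in 3 of the 14, among them the fits without EED-/- replicate 1 or 2, and the Nrf1 call in 10, among them DESeq2, upper-quartile scaling and 5 of the 6 fits that left out 1 library. The related coactivator Ppargc1a was not called, at 64.9 ± 9.85 CPM in EED-/- and 57.2 ± 7.57 in WT (edgeR adjusted p = 0.41).

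In neighbouring pathways, to be set beside 11.7% higher and 14.1% lower among all tested genes, 1 of 17 genes of pyruvate dehydrogenase and the citric acid cycle was higher (Suclg2, a subunit of succinyl-CoA ligase, log2 change 0.48) and 0 lower, and 1 of 78 mitochondrial ribosome genes was higher (Mrpl13) and 0 lower. The Mrpl13 call was lost in each fit that left out 1 library, and the Suclg2 call without EED-/- replicate 1 or 2. Among 19 glycolysis genes, 1 was higher and 2 lower. Eno3, the muscle enolase, stood at 8.72 ± 1.2 CPM in EED-/- and 5.80 ± 0.314 in WT, and Hk2, an inducible hexokinase, at 11.4 ± 1.86 CPM in EED-/- and 19.5 ± 0.177 in WT (edgeR adjusted p = 0.0291 for Eno3 and 0.00649 for Hk2). Pfkm, the muscle form of phosphofructokinase that neurons also use, stood at 306 ± 8.19 CPM in EED-/- and 417 ± 41.1 in WT (SD, n = 3 each). Hk2 was called in all 14 other fits. The Pfkm call was lost in 7, among them upper-quartile scaling, library size alone and the fits without EED-/- replicate 1, 2 or 3 or WT replicate 3, and the Eno3 call in 4, among them the fits without EED-/- replicate 1 or 2 or WT replicate 3. Of 12 other mitochondrial proteins, Hspd1, the chaperone of the matrix, was higher at 228 ± 25.2 CPM in EED-/- and 163 ± 21.8 in WT, a call lost without EED-/- replicate 1, EED-/- replicate 3 or WT replicate 3, and the electron carrier cytochrome c, Cycs, was not called (log2 change 0.31, edgeR adjusted p = 0.165).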

How the data were processed

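The 3 EED-/- and 3 WT RNA-seq libraries of cerebellum were used. The deposited table holds the authors' expected counts, estimated per gene and not scaled between libraries, for 55385 genes. The submitters' processing notes name Salmon 1.1.0, DESeq2 1.26.0, Trimmomatic 0.36 and Bowtie2 2.4.1 and the build GRCm38, without giving each tool's role. The authors' deposited table of differences gives a log2 fold change, a p-value and, as a score, a test statistic per gene, per the file headers, with a mean signal over libraries. Counts were rounded to whole numbers, filtered with filterByExpr, scaled by TMM and tested with edgeR 4.0.16 in R 4.3.3 (glmQLFit, glmQLFTest, robust), two-sided, with genotype as the only term. The fit covered all 18091 tested genes, and Benjamini-Hochberg adjusted p under 0.05 was called. DESeq2 1.42.0 and limma-voom 3.58.1 were alternatives. The procedure was checked on simulated counts. Counts of each replicate pair differed beyond counting error (chi-square over its degrees of freedom, 8.36 to 55.2). Levels per length divide CPM by the median length of a gene's annotated transcripts. The second Atp5o entry, Cox7b2, Cox8b, Cox8c and 4 tRNA genes were too low to be tested. Salmon splits reads of similar genes by likelihood, so values of close paralogues depend on that model. Members and lists were chosen with earlier results of these data known. Named genes were Eed, all mitochondrial mRNAs and rRNAs, all isoform pairs, the called or smallest-p members of each complex and up to 2 called genes a list and direction; mt-Tl1, Nrf1, Tfam, Ppargc1a, Cycs and the shares within the mitochondrial pool were added after the values were seen.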

Additional observations from a re-analysis of the deposited data

How the results depend on the processing

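Of 62 named genes over 15 settings each (930 combinations), 832 kept their call or its absence, 85 lost a call, 13 gained one and 0 turned direction among calls. The gene-level difference between EED-/- and WT was called for 4669 genes, and for 2160 at an adjusted p under 0.01 and 2540 to 4510 with 1 library left out. Mitochondrial genes called higher, 0 with TMM, were 1 with RLE factors, upper-quartile scaling, library size alone, library sizes without mitochondrial genes and limma-voom, 2 without the low-count filter, 3 with DESeq2, and 0 to 9 with 1 library left out. Nuclear members called higher, 5, were 3 without the filter, 0 at an adjusted p under 0.01 and 1 to 5 with 1 library left out, with 1 (Cox6a2) without EED-/- replicate 1, EED-/- replicate 2 or WT replicate 3. Cox6a2 passed the low-count filter through its EED-/- libraries, so its calls are not independent of that choice. Nuclear members called lower, 0, were 1 (Cox8a) without the filter and with DESeq2. The pathway lists held 206 tested genes, of which 11 were called (against 25.8% of all tested genes). Calls in these lists were 18 with upper-quartile scaling (4614 over all genes), 3 at an adjusted p under 0.01 and 3 to 19 with 1 library left out. The median change of nuclear members, 0.03, was 0.15 with upper-quartile scaling and -0.01 to 0.18 with 1 library left out; that scaling moved the median of all genes by 0.117 and the share of calls that were higher to 61.3%, and library size alone moved them by 0.1 and to 58.6%, against 45.5% with TMM. The median of the 13 mitochondrial mRNAs ranged from 0.29 to 0.76 and the ratio of the genomes from 1.15 to 1.66. Same-numbered libraries of the 2 genotypes did not deviate together over all genes (correlations 0.028, -0.233 and -0.001). These values cannot exclude a pairing that affects few genes, and the labels state none. With a replicate block, nuclear members called higher were 2 (Cox6a2 and Cox6b2), calls in the pathway lists 4, and all calls 3211. Some 20 counts make 1 CPM, so Cox6a2, Cox8b and most tRNA genes rest on few counts.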
